A study of Homo sapiens with 4 samples.

Results

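Mitochondrial ribosomal protein (MRP) genes were taken as all protein-coding genes with a symbol of MRPL or MRPS followed by a digit in the hg19 annotation. There were 78 such genes among 20176 protein-coding genes, 49 MRPL genes of the large subunit and 29 MRPS genes of the small subunit, spread over 21 chromosomes. Binding of SMAR1 was measured by ChIP-seq in HCT116, a human colorectal carcinoma cell line, either with p53 (HCT116 p53+/+) or without it (HCT116 p53-/-). Neither cell line carried any labelled treatment, and each gave 1 library of the anti-SMAR1 fraction, so no difference between them has a replicate check and no test was made. The mock libraries made with rabbit IgG were not analysed here. The comparison of the cell lines asks which sites SMAR1 occupies with and without p53. The peak lists hold no reads, so the depth behind each peak cannot be given. By the study's methods the HCT116 p53-/- library was the more deeply sequenced, so depth and p53 status cannot be told apart in any difference between the lists.

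Mitochondrial ribosomes translate the few proteins encoded by mitochondrial DNA, all of them subunits of the respiratory chain and ATP synthase. All of their proteins are encoded in the nucleus, made in the cytosol and imported, and they join ribosomal RNAs made inside the organelle. Some are named after bacterial ribosomal proteins, while others exist only in mitochondria. SMAR1 is a nuclear matrix protein encoded by BANP, and BANP protein is known to bind a CGCG element that occurs at CpG-rich promoters.

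There were 5709 peaks in HCT116 p53+/+ and 8217 in HCT116 p53-/-, with a median length of 61 bp in each. The MACS score of a peak is its log10 p-value multiplied by -10. It depends on depth, so a score was ranked only within its own list. A promoter was called bound when the centre of a peak lay within 1 kb of any annotated transcription start site (TSS) of the gene. The 95% Wilson interval beside a share reflects only the number of genes or peaks counted.

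Promoter peaks were found at 9 of the 78 MRP genes in at least one cell line (11.5%, interval 6.19 to 20.5), beside 6.90% of all coding genes. MRPS7, MRPS14 and MRPL57 were bound in both, MRPS16 and MRPS36 in HCT116 p53+/+ only, and MRPL12, MRPL52, MRPS18B and MRPS18C in HCT116 p53-/- only. Of all coding genes, 1.11% were bound in HCT116 p53+/+ only and 3.70% in HCT116 p53-/- only. A further 2 genes, MRPL33 and MRPS22, had a peak inside the annotated gene but not at a promoter. The remaining 67 genes had no peak.

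The CGCG core was written as CTCGCGAG, which reads the same on both strands, and its inner 6 letters as TCGCGA, which is counted again inside each CTCGCGAG. The 8-letter core lay in the MRPL57 and MRPS7 peaks of both cell lines, while the MRPS14 peaks and the MRPS18B peak held the 6-letter core alone. These are shown because no other MRP promoter peak held either core. Each sequence is 30 bases of the + strand of hg19, with the core in capitals, at chr13:21750730-21750759 for MRPL57, chr17:73257689-73257718 for MRPS7, chr1:174992689-174992718 for MRPS14 and chr6:30585088-30585117 for MRPS18B.
MRPL57: cgcagtcctctCTCGCGAGagccgaagtct
MRPS7: cggcttcaaaaCTCGCGAGagtctgcacga
MRPS14: ggatcggagctcTCGCGAtatttcacggaa
MRPS18B: gaaacgcccttgTCGCGAgacattatacgc

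The study names a T(C/G) dinucleotide repeat as the SMAR1 site, and the next sequences are the member peaks in which such repeats stood out. They are given on the + strand, where the repeat of the other strand reads as AC or AG, with uninterrupted runs of 8 bp or more in capitals. The MRPS36 sequence is the whole HCT116 p53+/+ peak at chr5:68514279-68514317, the MRPL33 sequence the whole HCT116 p53+/+ peak at chr2:28169521-28169601, and the MRPS22 sequence the whole HCT116 p53-/- peak at chr3:138882356-138882407.
MRPS36: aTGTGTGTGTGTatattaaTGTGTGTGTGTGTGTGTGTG
MRPL33: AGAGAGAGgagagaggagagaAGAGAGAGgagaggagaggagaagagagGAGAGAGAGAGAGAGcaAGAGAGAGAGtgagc
MRPS22: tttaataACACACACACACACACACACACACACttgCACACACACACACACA

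MRPS7 encodes a protein of the head of the small subunit, named after bacterial ribosomal protein S7. Its HCT116 p53+/+ peak, at chr17:73257630-73257936, scored 132.97 and was centred 28 bp from the nearest TSS. In HCT116 p53-/- the peak at chr17:73257521-73258029 scored 965.19 and was centred 20 bp from a TSS. These were the top-scoring MRP peaks of their lists, at ranks 294 and 74, and the first lay wholly within the second (307 bp shared). Both centres fell in an untranslated exon of MRPS7, and inside the longest annotation of GGA3, a clathrin adaptor of the Golgi that is transcribed the other way. The CTCGCGAG core lay at -51 bp from the MRPS7 5′ end, at the position of a GGA3 TSS, which is also at -51 bp.

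MRPL57 encodes a protein of the large subunit that is specific to mitochondria. Its peak was at chr13:21750693-21750857 in HCT116 p53+/+ (score 93.3, 22 bp from the TSS) and at chr13:21750507-21750966 in HCT116 p53-/- (score 579.37, 61 bp). All 165 bp of the former lay within the latter. Both centres fell between genes, on the stretch that separates MRPL57 from its divergent partner SKA3, a component of the kinetochore, and the HCT116 p53-/- centre was nearer to SKA3 than to MRPL57. The CTCGCGAG core lay at -52 bp from the MRPL57 5′ end, which is -30 bp and 9 bp from the 2 peak centres, respectively.

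MRPS14, named after bacterial S14 of the small subunit, was bound on the upstream side of its 5′ end. The HCT116 p53+/+ peak at chr1:174992637-174992769 scored 77.6 and the HCT116 p53-/- peak at chr1:174992465-174992885 scored 255.22, with centres 142 bp and 114 bp from a TSS. No other coding gene had a TSS within 1 kb of either peak centre. TCGCGA lay 1 bp from the HCT116 p53+/+ centre and 29 bp from the HCT116 p53-/- centre. The HCT116 p53+/+ peak is short enough to print in full (133 bp, + strand, capitals as above), since it shows the 6-letter core amid sequence with no T(C/G) run over 5 bp.
MRPS14 peak, chr1:174992637-174992769: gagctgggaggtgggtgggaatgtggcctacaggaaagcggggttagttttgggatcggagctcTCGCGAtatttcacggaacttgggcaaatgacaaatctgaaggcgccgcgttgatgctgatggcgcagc

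**Figure D1:**
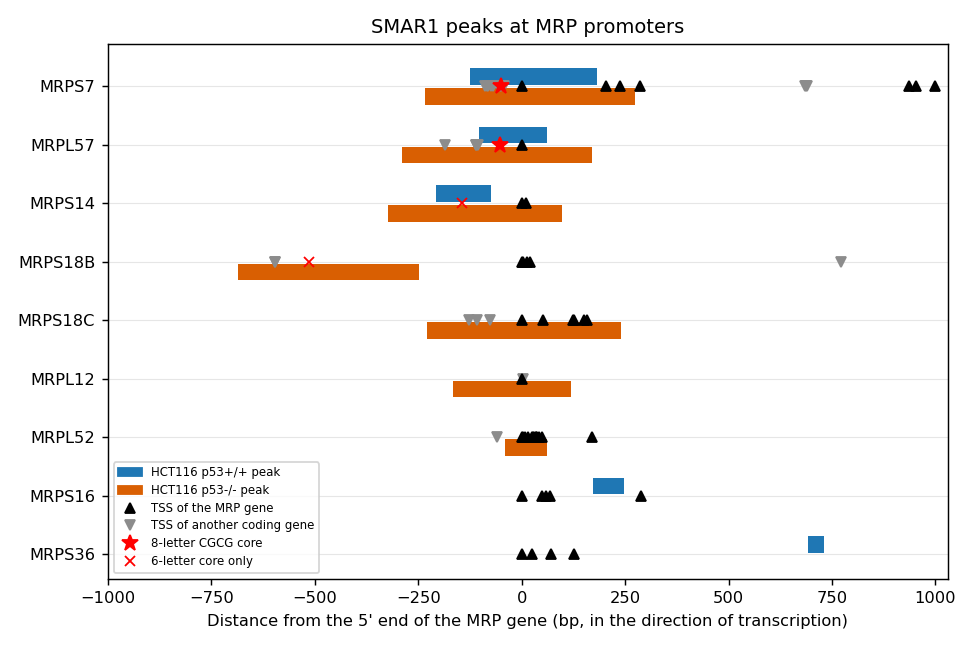
Positions of the SMAR1 peaks at the 9 bound MRP promoters, with the distance from the 5′ end of the gene in bp, in the direction of transcription, on the horizontal axis. Blue bars are HCT116 p53+/+ peaks, orange bars HCT116 p53-/- peaks, black triangles TSSs of the MRP gene, grey triangles TSSs of other coding genes, and red symbols the CGCG cores (star, 8 letters; cross, 6 letters only). MRPS7, MRPL57 and MRPS14 carry overlapping bars in both cell lines, and the MRPS36 bar lies farthest downstream, centred at 711 bp.

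The 4 promoters with a peak in HCT116 p53-/- alone belonged to genes of both subunits. MRPS18B, which with MRPS18A and MRPS18C forms the family related to bacterial S18, had a peak at chr6:30584932-30585369 that scored 517.86. Its centre was 467 bp from the nearest MRPS18B TSS and nearer to TSSs of PPP1R10, a regulatory subunit of protein phosphatase 1 on the other strand, which start at -596 bp and -597 bp. The nearest HCT116 p53+/+ peak to an MRPS18B TSS was 772070 bp (rounded to 10 bp) away. MRPS18C had a peak at chr4:84376857-84377324 that scored 314.21 and was centred 5 bp from a TSS, in an exon of a non-coding MRPS18C transcript. Its divergent partner is HELQ, a DNA helicase, with TSSs from -128 bp to -77 bp. MRPS18A, the remaining member of the family, had no peak, and its nearest was 58277 bp away in HCT116 p53-/-.

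MRPL12, which forms the flexible stalk of the large subunit, had a peak at chr17:79670232-79670516 that scored 207.46, with its centre 23 bp upstream of its only TSS. A coding readthrough transcript annotated as a separate gene starts 4 bp downstream of the MRPL12 5′ end on the same strand. MRPL52, of the large subunit and specific to mitochondria, had a peak at chr14:23299049-23299148 that scored 92.97, centred 2 bp from a TSS in an untranslated exon. Its partner is SLC7A7, a transporter of cationic amino acids, with a TSS at -59 bp. MRPL52 had the lowest score of the 7 HCT116 p53-/- promoter peaks, and the other 6 scored above 200.

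Neither of the peaks seen in HCT116 p53+/+ alone scored high. The MRPS16 peak at chr10:75012204-75012278 scored 56.34 and was centred 79 bp from a TSS, in an untranslated exon and within the antisense gene DNAJC9-AS1. MRPS16 is named after bacterial S16. The MRPS36 peak at chr5:68514279-68514317 scored 55.78, measured 39 bp, and was centred in an intron 584 bp from the nearest TSS. The MRPS36 product is now assigned to the 2-oxoglutarate dehydrogenase complex rather than to the ribosome, so without it 4 of 77 genes were bound in HCT116 p53+/+. Both scores were below the HCT116 p53+/+ median of 67.86. MRPS36 was the bound promoter farthest from its peak, and the nearest peak beyond 1 kb was that of MRPL53 at 3390 bp in HCT116 p53-/-.

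The gene-body peaks lay far from the canonical transcripts of their genes. The MRPL33 peaks, at chr2:28169521-28169601 in HCT116 p53+/+ (score 55.62) and chr2:28169472-28169617 in HCT116 p53-/- (score 53.44), shared 81 bp. They fell 167 kb beyond the end of the canonical MRPL33 transcript, in an intron of a longer annotated MRPL33 isoform and of BABAM2, which encodes a BRCA1-A complex subunit and whose TSS was the nearest one. The MRPS22 peak, in HCT116 p53-/- only, scored 65.06 and lay 180.5 kb from the canonical MRPS22 transcript, in an intron of an extended isoform. The longest T(C/G) run was 15 bp in each MRPL33 peak and 26 bp in the MRPS22 peak. A peak in the gene body and none at a promoter was thus found for 1 of 78 MRP genes in HCT116 p53+/+ and 2 of 78 in HCT116 p53-/-, beside 7.61% and 9.77% of all coding genes. The MRP intervals, 0.227 to 6.91% and 0.706 to 8.88%, lie below these shares. The shares were not matched for gene length, and a short gene offers less room for such a peak. Low values were not particular to MRP genes. Gene-body shares were 1.96% and 4.90% for the cytosolic ribosomal list described below. They were 5.63% and 2.82% for the list of 71 other mitochondrial genes.

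In HCT116 p53+/+, 5 of 78 MRP promoters were bound (6.41%, interval 2.77 to 14.1), and 3.21% of all coding genes were. In HCT116 p53-/-, 7 of 78 were bound (8.97%, interval 4.41 to 17.4), and 5.79% of all coding genes were. In both cell lines at once, 3 of 78 were bound (3.85%, interval 1.32 to 10.7), beside 2.10% of all coding genes. Each of these intervals holds the share of all coding genes. That depended on the definition in part. Counting from the 5′ end of the gene alone, 5 and 7 MRP promoters were still bound. The shares of all coding genes were then 2.18% and 4.21%, below both intervals. The 5 in HCT116 p53+/+ include MRPS36, and no interval was computed without it. With peaks at or above the median score, 7 were bound in HCT116 p53-/- beside 4.23%. MRP promoters are often CpG-rich (65 of 78, 83.3%, against 57.5% of all coding genes). CpG-rich coding promoters as a class were bound at 465 and 861 of 11612 (4.0% and 7.4%), inside the MRP intervals above. Their shares under the other definitions were not computed. Of the 65 CpG-rich MRP promoters, 5 were bound in HCT116 p53+/+ and 6 in HCT116 p53-/-.

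Small subunit genes, 29 of the 78, supplied 6 of the 9 bound promoters, with MRPS36 among the 6. Among MRPS genes 4 of 29 were bound in each cell line (13.8%, interval 5.50 to 30.6), and among MRPL genes 1 of 49 was bound in HCT116 p53+/+ (2.04%, interval 0.361 to 10.7) and 3 of 49 in HCT116 p53-/- (6.12%, interval 2.10 to 16.5). The intervals of the 2 subunits overlapped in each cell line. Of all coding genes, 3.21% were bound in HCT116 p53+/+ and 5.79% in HCT116 p53-/-. The MRPS interval lies above the former, counting MRPS36, and holds the latter. The MRPS genes bound in HCT116 p53+/+ include MRPS16 and MRPS36, whose peaks scored 56.34 and 55.78, below the list median of 67.86. MRPS genes without MRPS36, or without both, were not given an interval. Both MRPL intervals hold the share of all coding genes. Genes named after bacterial proteins were bound in 3 and 5 of 44 cases, in HCT116 p53+/+ and HCT116 p53-/-, respectively. Genes specific to mitochondria were bound in 2 and 2 of 34, with MRPS36 among those of HCT116 p53+/+. The intervals of both groups hold the share of all coding genes in each cell line.

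**Figure D2:**
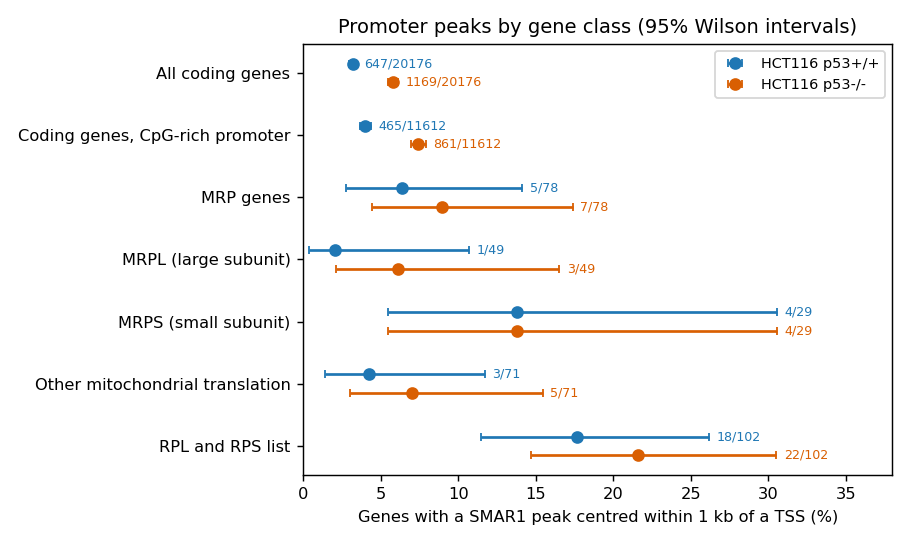
Share of genes with a SMAR1 peak centred within 1 kb of a TSS (horizontal axis, percent) in each gene class, in HCT116 p53+/+ (blue) and HCT116 p53-/- (orange). Points are shares, bars are 95% Wilson intervals and the labels give bound genes over all genes of the class. The intervals of all MRP genes reach below the share of all coding genes, while those of the cytosolic RPL and RPS list lie above it. The interval of the MRPS genes lies above it in HCT116 p53+/+ only, counting MRPS16 and MRPS36, whose peaks scored below the list median.

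Genes for the cytosolic ribosome, collected by the symbols RPL or RPS followed by a digit, RPLP and RPSA, were bound in 18 of 102 cases in HCT116 p53+/+ (17.6%, interval 11.5 to 26.2) and 22 of 102 in HCT116 p53-/- (21.6%, interval 14.7 to 30.5). The symbol rule also takes in 10 RPS6K kinases, and without them the counts were 18 and 21 of 92. These shares were higher than those of the MRP genes, with intervals that overlapped in both cell lines.

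A list of 71 other genes of mitochondrial translation and transcription covered tRNA synthetases, factors, assembly proteins, the transcription machinery and ribosomal subunits without an MRP symbol. Of these, 3 were bound in HCT116 p53+/+ (4.23%) and 5 in HCT116 p53-/- (7.04%), beside 3.21% and 5.79% of all coding genes. The intervals of the list, 1.45 to 11.7% and 3.045 to 15.45%, hold these shares. From the 5′ end of the gene alone, 2 and 4 were bound, beside 2.18% and 4.21%. FASTKD2, an RNA-binding protein of large subunit assembly that is transcribed divergently from MDH1B, had scores of 106.57 and 870.61. AURKAIP1, a small subunit protein without an MRP symbol, had scores of 64.59 and 229.83. NOA1, a GTPase of ribosome assembly divergent from POLR2B, was bound in HCT116 p53-/- only, with a score of 369.32. MTRF1L, a release factor, had 2 peaks in HCT116 p53-/- only, with scores of 100.8 and 92.11. None of the 5 promoters held CTCGCGAG within 500 bp of its 5′ end, while the NOA1 peak and the MTRF1L peak that scored 100.8 held TCGCGA.

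The fifth gene of that list, SARS2, encodes the mitochondrial seryl-tRNA synthetase and starts 181 bp from MRPS12, a protein of the decoding centre. The SARS2 peaks (scores 57.25 and 73.4) were not at this shared promoter. They lay 10150 bp and 9803 bp downstream of the SARS2 5′ end, near later SARS2 start sites, and each held a T(C/G) run of 29 bp. MRPS12 itself had no promoter peak, with its nearest peak at 9984 bp in HCT116 p53-/-.

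A divergent partner was defined as a coding gene on the other strand whose 5′ end lies upstream of the MRP 5′ end and within 1 kb of it. Of the 78 MRP genes, 17 had one (21.8%), compared with 8.45% of all coding genes and 12.9% of coding genes with a CpG-rich promoter. Several pairs join MRP genes to other mitochondrial or housekeeping genes. MRPL46 and MRPS11 face each other 63 bp apart. MRPL36 is paired with NDUFS6 and MRPL47 with NDUFB5, both encoding subunits of respiratory complex I, each at 41 bp, and MRPL49 lies 6 bp from FAU, which encodes a ubiquitin-like fusion with a cytosolic ribosomal protein. MRPL18 is paired with TCP1, a chaperonin subunit, and MRPL32 with PSMA2, a proteasome subunit. None of these 7 MRP genes was bound, but the pairs were picked after their values were seen. Of all 17 MRP genes with a partner, 3 were bound in at least one cell line. The share was 12.1% over all coding genes with a partner, so 7 genes are too few to show an absence.

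The bound genes among the 17 were MRPL57 with SKA3, MRPL52 with SLC7A7 and MRPS18C with HELQ. With a partner, 1 of 17 MRP genes was bound in HCT116 p53+/+ and 3 of 17 in HCT116 p53-/- (17.6%, interval 6.19 to 41.0), and without one, 4 of 61 in each cell line (6.56%, interval 2.58 to 15.7). For all coding genes the shares with a partner were 5.63% and 11.2%, and those without one 2.98% and 5.30%. MRPS7 with GGA3 and MRPS18B with PPP1R10 face each other too, but the 5′ ends of these partners fall inside the MRP gene, so the definition misses them. Counting any TSS of an opposite-strand coding gene within 1 kb, 33 of 78 MRP genes (42.3%) had a neighbour, against 17.6% of all coding genes, and 5 of the 33 were bound in at least one cell line, beside 12.4% of all coding genes with such a neighbour. At such pairs a peak cannot be assigned to one gene or the other.

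Within their lists, the MRP promoter peaks of HCT116 p53-/- stood higher than those of HCT116 p53+/+. In HCT116 p53-/-, MRPS7 scored no lower than 99.1% of all peaks, and the percentiles of MRPL57, MRPS18B, MRPS18C, MRPS14 and MRPL12 lay between 94.8 and 97.9, with MRPL52 at 73.0. In HCT116 p53+/+, the percentiles were 94.9 for MRPS7, 80.8 for MRPL57, 65.9 for MRPS14, 22.9 for MRPS16 and 18.6 for MRPS36. Peaks at coding promoters score high as a class. Ranked among the 608 such peaks of HCT116 p53+/+ the MRP peaks spanned percentiles 17.8 to 78.5, and among the 1048 of HCT116 p53-/- they spanned 46.5 to 93.5. The median MRP score was 77.6 in HCT116 p53+/+, beside 73.66 for coding promoter peaks, and 314.21 in HCT116 p53-/-, beside 98.83. Median lengths were 133 bp and 438 bp for MRP promoter peaks and 107.5 bp and 171 bp for coding promoter peaks, with MRPS36 (39 bp), MRPS16 (75 bp) and MRPL52 (100 bp) below the latter.

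**Figure D3:**
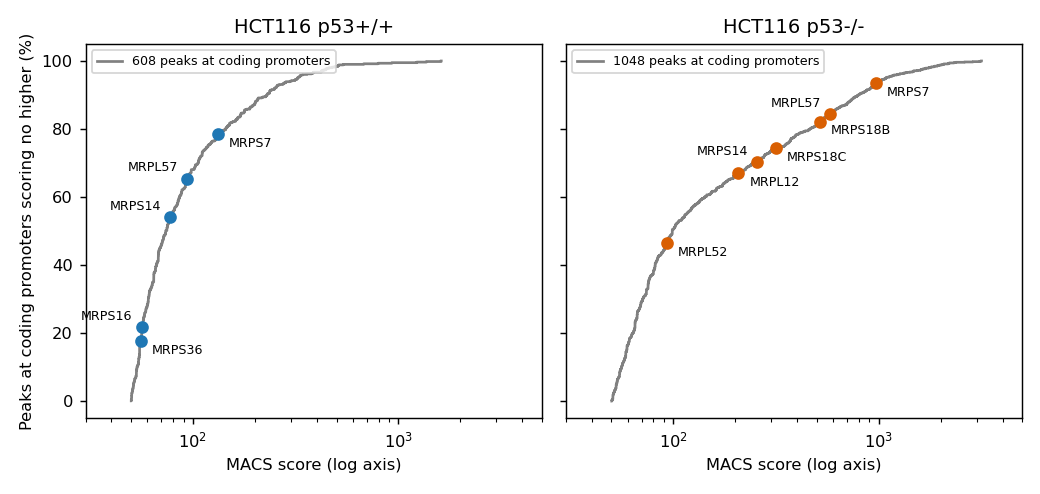
MACS score (horizontal log axis) against the percent of coding promoter peaks that score no higher (vertical axis), for HCT116 p53+/+ (left, 608 peaks) and HCT116 p53-/- (right, 1048 peaks). Grey steps are all peaks at coding promoters and labelled dots are MRP promoter peaks, which reach from 17.8% to 78.5% on the left and from 46.5% to 93.5% on the right.

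The CTCGCGAG core was present in 2 of 5 MRP promoter peaks in HCT116 p53+/+ and 2 of 7 in HCT116 p53-/-, MRPL57 and MRPS7 each time. Among all peaks at coding promoters it was in 122 of 608 (20.1%) and 202 of 1048 (19.3%), and among peaks elsewhere in 6 of 5076 (0.118%) and 13 of 7138 (0.182%). Coding promoter peaks with the core had median scores of 150.57 and 477.49, and those without it 67.86 and 84.48. The MRPS7 and MRPL57 scores in HCT116 p53+/+ lie below the first of these medians, and both HCT116 p53-/- scores lie above 477.49. Counting the 6-letter core, 3 of 5 and 4 of 7 MRP peaks had it, beside 33.9% and 33.2% of coding promoter peaks. The MRP peaks had longer medians (133 bp and 438 bp, beside 107.5 bp and 171 bp). A longer peak has more room for a core, and these shares were not matched for length.

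Across all coding genes, 432 had CTCGCGAG within 500 bp of the 5′ end, of which 30.3% were bound in HCT116 p53+/+ and 45.6% in HCT116 p53-/-. Among MRP genes the core was that close in 3 cases. MRPL57 and MRPS7 were bound in both cell lines, whereas MRPL4, of the large subunit, had no peak within 46751 bp of a TSS in either.

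T(C/G) runs of at least 12 bp were counted in the MRP promoter peaks. They occurred in the MRPS36 peak (20 bp) and in none of the other 4 HCT116 p53+/+ promoter peaks, and in 0 of 7 in HCT116 p53-/-, where the longest run was 7 bp. The shares among coding promoter peaks were 26.6% and 27.6%, and among peaks elsewhere 64.0% and 83.7%. With 5 and 7 peaks, a difference from coding promoters was not detectable.

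Other promoter elements were counted from 250 bp upstream to 50 bp downstream of the 5′ end on both strands, as the 8-letter cores CCGGAAGT (ETS factors), GCGCATGC (NRF1, a regulator of nuclear genes for mitochondria), AAGATGGC (YY1) and GGGGCGGG (SP1). The YY1 core was in 15 of 78 MRP promoters (19.2%), beside 3.02% of all coding promoters and 4.07% of CpG-rich ones. The NRF1 core was in 8 (10.3%, beside 3.76% and 5.59%), the ETS core in 9 (11.5%, beside 5.06% and 7.94%) and the SP1 core in 27 (34.6%, beside 27.3% and 41.7%). The CTCGCGAG core was in 2 (2.56%, beside 1.19% and 1.95%). A match is a description of the letters and not a measured site.

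No promoter with a YY1, NRF1 or ETS core was bound in HCT116 p53+/+. Among all coding genes with these cores, 5.42%, 4.08% and 4.31% were bound there, respectively. With only 15, 8 and 9 such MRP promoters, the absence of a bound one cannot be told from these shares. In HCT116 p53-/- a peak was found at 2 of the 15 with a YY1 core (MRPL52 and MRPS18B), at 3 of the 8 with an NRF1 core (MRPL52, MRPS18B and MRPS18C) and at 1 of the 9 with an ETS core (MRPL52), beside 10.2%, 7.91% and 9.71% of coding genes with each core. Of the 27 with an SP1 core, 2 were bound in each cell line (MRPS7 and MRPS14), beside 2.92% and 5.04%. MRPL52 held 3 of the cores. Cores were counted in the promoter and not in the peak. The MRPS18B peak, centred 467 bp upstream of the 5′ end, only touched the edge of the counted window. It did not hold the YY1 or NRF1 core counted for MRPS18B. The NRF1 core of MRPS18C is shown because it lies just upstream of the 5′ end and inside the peak. The stretch is chr4:84377009-84377084 on the + strand of hg19, and ends at the base before the MRPS18C 5′ end, with the core in capitals.
MRPS18C: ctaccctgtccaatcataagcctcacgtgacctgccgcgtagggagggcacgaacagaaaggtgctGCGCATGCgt
Of the 32 MRP promoters with none of the 5 cores, MRPS16 and MRPS36 were bound in HCT116 p53+/+ and MRPL12 in HCT116 p53-/-, beside 2.67% and 5.12% of coding genes with none.

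**Figure D4:**
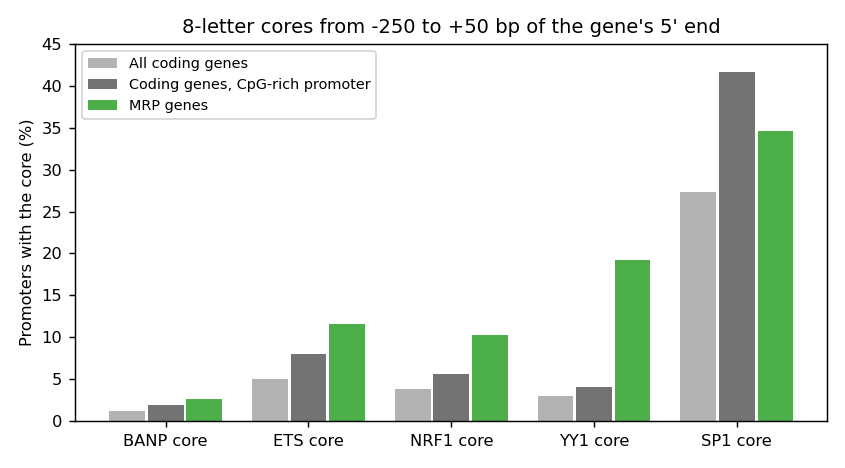
Percent of promoters (vertical axis) that hold each 8-letter core between 250 bp upstream and 50 bp downstream of the 5′ end, for all coding genes (light grey), coding genes with a CpG-rich promoter (dark grey) and MRP genes (green). The YY1 core is at 19.2% in MRP promoters and at 3.02% in all coding promoters.

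The 67 MRP genes without a peak were mostly far from one. The median distance from a TSS to the nearest peak centre was 162.9 kb in HCT116 p53+/+ (10.33 to 1518 kb) and 155.8 kb in HCT116 p53-/- (3.39 to 670 kb). The nearest were MRPL53 (3390 bp), MRPL2 (5116 bp), MRPL48 (6855 bp), MRPL17 (9661 bp) and MRPS12 (9984 bp), all in HCT116 p53-/-, and the other 62 were over 10 kb away in both cell lines. Over all 78 genes the medians were 140.8 kb and 127.4 kb, beside 151.9 kb and 94.07 kb over all coding genes.

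**Figure D5:**
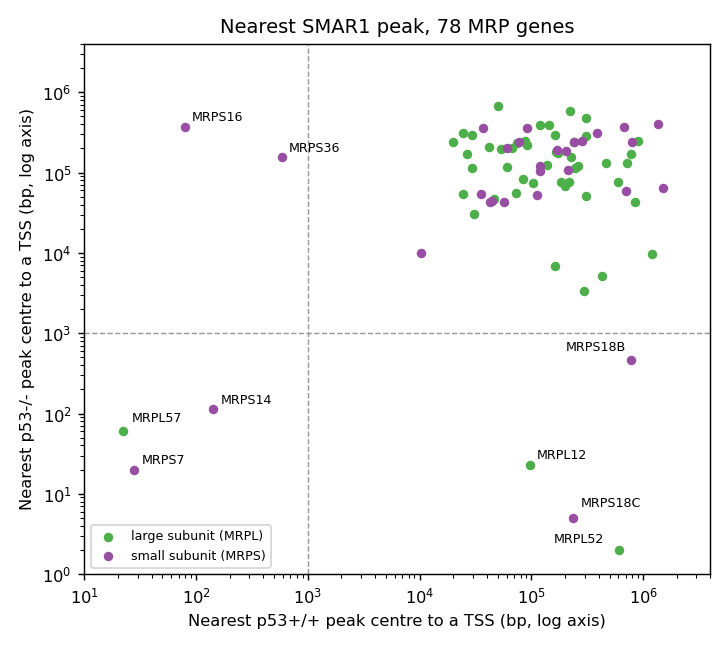
Distance from the nearest TSS to the nearest peak centre (log axes, bp) for each of the 78 MRP genes, in HCT116 p53+/+ (horizontal) and HCT116 p53-/- (vertical), with large subunit genes in green and small subunit genes in purple. Dashed lines mark the 1 kb window. The 3 genes at the lower left are bound in both cell lines, the 2 at the upper left in HCT116 p53+/+ only and the 4 at the lower right in HCT116 p53-/- only.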

How the data were processed

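Chromatin from HCT116 p53+/+ and HCT116 p53-/- cells was immunoprecipitated with an anti-SMAR1 antibody and sequenced single-end, 1 library per cell line. Per the submitters' processing notes and the methods, the authors trimmed reads with cutadapt 1.2.1, checked them with FastQC 0.10.1, aligned them to hg19 with Bowtie2 2.2.1 and called peaks with MACS 1.4.2. SAMtools 0.1.19 and CASAVA are also named in the notes. The authors then filtered peaks on fold enrichment. The limit they used, and whether MACS was given the IgG reads as its control, are not given in the sources used here. The deposited peak lists hold positions and the MACS score, a unit not normalized for depth.

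Positions were set against GRCh37 and GENCODE release 44 lifted to that build, an annotation later than the study. Peaks were converted to 1-based coordinates. The distance was measured from the peak centre to the nearest TSS of any transcript, and CpG-rich meant an observed to expected CpG ratio of at least 0.6 and at least 50% GC in the 500 bp on each side of the 5′ end. Genes were counted as bound or not, shares had Wilson intervals and no p-value was computed. Every MRP gene with a peak, the 5 nearest without one, the partners of bound genes and the bound genes of the list of 71 are named; other pairs, MRPS18A and MRPL4 were named after their values were seen. The members and lists were chosen with earlier results of these data known. The functions passed 8 checks on simulated positions and sequences (2000 items each, 100% correct). Alternatives covered the TSS window, the TSS set, the score minimum, the overlap and motif rules, and the partner definition. Sequences were read with pysam 0.24.0, tables handled with pandas 2.3.3 and numpy 2.4.6, intervals computed with scipy 1.17.1 and figures drawn with matplotlib 3.10.9, all in Python 3.11.15.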

Additional observations from a re-analysis of the deposited data

How the results depend on the processing

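Of 41 alternative values, 34 stayed equal or close to the main value and 7 moved. The 34 include changes in a count, such as 4 in place of 5 MRP promoters bound in HCT116 p53+/+ with a 500 bp window. They also include 3 in place of 2 HCT116 p53+/+ MRP promoter peaks with the core, counting TCGCGA. Counts of the 71 other genes from the 5′ end alone, 2 and 4 in place of 3 and 5, are among them too. With peaks at or above the median score only, 3 MRP promoters were bound in HCT116 p53+/+, as MRPS16 and MRPS36 were lost, beside 2.05% of all coding genes. With a reciprocal overlap of 50% required, 1 promoter counted as bound in both cell lines. Ranked among coding promoter peaks in place of all peaks, the median percentile fell from 65.9 to 54.1 in HCT116 p53+/+ and from 96.3 to 74.3 in HCT116 p53-/-. With TCGCGA in place of CTCGCGAG, 4 of 7 HCT116 p53-/- peaks held the core. Bound genes with a partner were 3 of 17, 5 of 21 with partners of any gene type, and 5 of 33 with any opposite-strand TSS, beside 12.1%, 10.0% and 12.4% of coding genes. The last is an alternative chosen after seeing the data, as was leaving out MRPS36. With the HCT116 p53-/- list reduced to its top 5709 peaks, 7 MRP promoters were bound beside 4.79% of coding genes. With a 2 kb window 5, 7 and 3 were bound in HCT116 p53+/+, HCT116 p53-/- and both, beside 4.06%, 6.94% and 2.36%. From the 5′ end of the gene only the counts were again 5, 7 and 3, beside 2.18%, 4.21% and 1.69% of coding genes. The first 2 of these lie below the intervals of the MRP shares, counting MRPS36 in HCT116 p53+/+. Shares of CpG-rich coding promoters were not computed there. No paired analysis was possible because each cell line had 1 library, and for the same reason no library could be left out. Neither peak list gives reads, so peaks missed for lack of depth cannot be told from unbound sites.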

Other observations

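The p53 consensus half-site, searched after the other results were seen in each peak with 50 bp on each side and with no mismatch, was in 0 of 5 MRP promoter peaks in HCT116 p53+/+ and 1 of 7 in HCT116 p53-/-, the MRPS14 peak. Among coding promoter peaks it was in 31 of 608 (5.10%) and 62 of 1048 (5.92%). The counts were not matched for peak length.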
